A study of Mus musculus with 8 samples.

Results

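Accessible chromatin was described at 5 genes of the follistatin family, Fst, Fstl1, Fstl3, Fstl4 and Fstl5, out of 32106 annotated protein-coding and long non-coding mouse genes. Members were ATAC-seq peaks that touched a gene body or the 20 kb on either side of it. This gave 213 peaks of the 434365 in 3 lists, of which 80 were in the wild-type (WT) list, 50 in the heterozygous (het) list and 83 in the mutant list. Fstl5 was chosen from the readout itself, because many of its WT peaks have no counterpart in the mutant list. Its share of unmatched WT peaks, and every other value that sets WT beside mutant at this gene, is therefore given as a description.

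ATAC-seq marks open DNA, where the Tn5 transposase can insert sequencing adapters. It was applied to granule neuron progenitors (GNPs), the proliferating cells that give rise to cerebellar granule neurons, purified on a density gradient from cerebella of mice at postnatal day 7 (strain given as C56Bl6/J). The WT cells carried floxed Chd7 alleles without Cre (Chd7 f/f; 3 libraries). The mutant cells carried the same floxed alleles with Atoh1-Cre (Atoh1-Cre::Chd7 f/f; 3 libraries), and the het cells had Atoh1-Cre with 1 floxed allele (Atoh1-Cre::Chd7 f/+; 2 libraries). Chd7 encodes a chromatin remodelling enzyme. Atoh1-Cre acts in the granule lineage, and the study's authors saw Chd7 protein remaining in the posterior lobe of mutants, for which they gave lower recombination as the probable reason, so mutant preparations may hold cells that kept Chd7. The WT and mutant libraries were described as technical replicates. The libraries of each genotype were pooled by the authors before peaks were called, so each list is 1 measurement, no value has a replicate error, and no test between genotypes could be made. Intervals below are 95% Wilson intervals, which cover counting error over peaks only.

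The WT and mutant lists were of similar depth, with 50394313 and 51030229 tags after duplicate filtering, and were called with tags extended to 90 bp and 88 bp. The het list rested on 30923002 tags extended to 200 bp and is used for the presence of a peak and its rank within that list, not for heights. Tag length, as determined at peak calling, was 107 bp for WT and 76 bp for mutant, and its origin was not stated. A difference between these lists cannot be told apart from that difference in tag length. All 7 marker genes of granule progenitors that were looked up, among them Atoh1, Pax6 and Zic1, had a peak within 1 kb of their start site in each list. Of 10 markers of other cerebellar cell types, 4 had such a peak in each list. The 4 were Calb1 of Purkinje cells, Gfap of astroglia, Mbp of oligodendrocytes and Cldn5 of endothelium, with WT ranks between 54.9 and 89.1 on a scale on which 100 is the strongest peak of a list. Pcp2 of Purkinje cells, Aqp4 of astroglia, Mog of oligodendrocytes and Pecam1 of endothelium had none in any list. The defining microglial genes Cx3cr1 and Csf1r had none either. The part of other cell types in the results below was not tested.

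Follistatin, the product of Fst, is a secreted glycoprotein that binds activins and related ligands of the TGF-beta superfamily and keeps them from their receptors. Fstl3 encodes a close relative with the same activity. Fstl1 encodes a secreted glycoprotein of the same domain family that is expressed in many mesenchymal tissues. Fstl4 and Fstl5 encode larger secreted proteins that combine a follistatin-like domain with calcium-binding and immunoglobulin-like domains, and their genes are far longer than those of the other members. FSTL5 is also known as a marker of poor outcome in medulloblastoma, a tumour of the cerebellum.

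The sequences of 6 regions are shown first. They are the 4 unmatched WT peaks of Fstl5 with the most significant calls, each printed whole, and for contrast 201 bp around the summit of an intronic Fstl5 peak found in all 3 lists and of the strongest intronic Fstl4 peak. All 6 lie in introns and are read from GRCm38 on the plus strand, 5′ to 3′. Capitals mark matches, on either strand, to 4 motifs: the E-box cores CAGCTG and CAGATG, which proneural basic helix-loop-helix factors bind, the short TTGGC core of nuclear factor I sites, and the AP-1 site TGACTCA. A match is a run of letters and not evidence of binding.
Fstl5 unmatched 1 (chr3:76301093-76301351): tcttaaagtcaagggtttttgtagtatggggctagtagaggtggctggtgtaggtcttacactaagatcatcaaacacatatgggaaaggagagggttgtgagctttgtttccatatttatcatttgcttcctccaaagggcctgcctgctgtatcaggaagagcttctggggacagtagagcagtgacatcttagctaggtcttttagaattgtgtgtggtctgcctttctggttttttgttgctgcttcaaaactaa
Fstl5 unmatched 2 (chr3:76301512-76301671): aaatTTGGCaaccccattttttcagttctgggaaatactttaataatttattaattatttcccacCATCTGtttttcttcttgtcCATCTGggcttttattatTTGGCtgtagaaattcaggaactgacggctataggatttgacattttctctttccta
Fstl5 unmatched 3 (chr3:76369954-76370094): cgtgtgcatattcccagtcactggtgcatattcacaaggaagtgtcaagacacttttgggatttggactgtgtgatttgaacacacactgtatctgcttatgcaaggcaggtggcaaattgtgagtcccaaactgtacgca
Fstl5 unmatched 4 (chr3:76370742-76370910): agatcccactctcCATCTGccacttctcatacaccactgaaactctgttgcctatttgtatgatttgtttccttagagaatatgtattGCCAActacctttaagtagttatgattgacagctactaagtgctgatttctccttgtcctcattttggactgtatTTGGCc
Fstl5 shared (chr3:76679923-76680123): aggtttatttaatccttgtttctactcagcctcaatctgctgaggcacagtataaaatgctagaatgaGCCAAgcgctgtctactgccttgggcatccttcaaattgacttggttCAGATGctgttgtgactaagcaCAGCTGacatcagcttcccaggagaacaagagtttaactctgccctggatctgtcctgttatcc
Fstl4 shared (chr11:53025797-53025997): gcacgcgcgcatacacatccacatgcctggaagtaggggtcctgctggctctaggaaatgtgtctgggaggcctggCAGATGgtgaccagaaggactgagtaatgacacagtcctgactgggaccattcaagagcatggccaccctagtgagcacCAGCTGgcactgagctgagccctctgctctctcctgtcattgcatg

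The 2 E-box and 2 TTGGC matches in Fstl5 unmatched 2 and the 1 E-box and 2 TTGGC matches in Fstl5 unmatched 4 stood beside 0 matches in Fstl5 unmatched 1 and Fstl5 unmatched 3. GC content was 43.2%, 33.1%, 45.4% and 39.6% in the 4 unmatched regions, 45.3% in the shared Fstl5 region and 57.2% in the Fstl4 region.

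At Fstl5 (ENSMUSG00000034098.14, chr3:76074270-76710019, plus strand), 35 peaks were called in WT, 25 in mutant and 10 in het. The gene spans 635.75 kb with up to 16 exons in a transcript, and its density of peaks was 5.18 per 100 kb of window in WT, 3.70 in mutant and 1.48 in het. Of the 35 WT peaks, 30 lay in introns, 1 at the annotated start site, 1 at the start of another transcript of the gene, 1 in an exon and 2 in the flanks. The 7.13 kb covered by WT peaks compared with 4.25 kb covered by mutant peaks. The plot of peaks along Fstl5 shows that strong peaks were few and that most of the gene was marked by weak ones.

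**Figure D1:**
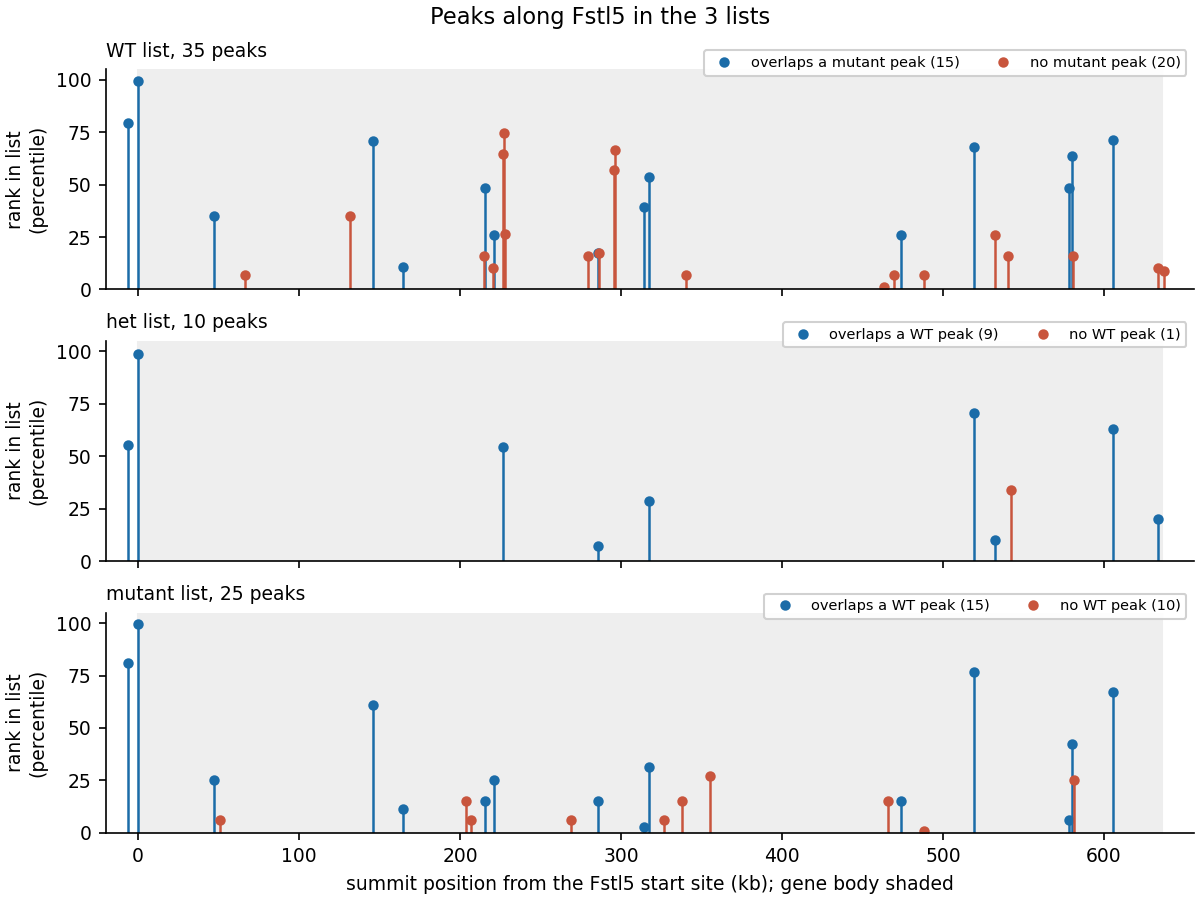
Peaks along Fstl5 in the WT, het and mutant lists, by distance of the summit from the start site (x axis, kb) and percentile rank of the peak in its own list (y axis, 100 is the strongest). Blue marks peaks that overlap a peak of the other list and red those that do not. In WT, 20 of 35 peaks have no mutant peak, while the start-site peak has a rank of 99.5 and is found in each list.

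The start-site peak of Fstl5 (chr3:76074050-76074826, 777 bp) had a pileup, the height in extended tags at the summit, of 85 in WT and 84 in mutant. It was also called in het. An upstream peak 6.14 kb before the start site had pileups of 26 and 27 and was again found in het. The peak at the start of a shorter transcript, 519 kb into the gene, had pileups of 20 in WT and 24 in mutant. Each of these 3 peaks differed by at most 4 tags between WT and mutant.

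The start-site peak of Fstl5 was also the strongest start-site peak of the family. It ranked at 99.5 in WT, at 99.3 in mutant and at 98.7 in het. The start-site peak of Fstl1 had a WT rank of 76.5, the stronger of the pair at the start of Fst 72.8, that of Fstl4 43.9 and that of Fstl3 20.5. Fstl3 had a stronger peak within 1 kb of the start of another of its transcripts, 2.93 kb into the gene. That peak had a WT rank of 82.2 and was found in each list. The 501 bp around the Fstl5 start site had the lowest GC content, 53.5% with 18 CpG, against 65.7% to 70.9% with 30 to 54 CpG at the others.

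Inside the gene the lists differed. At 20 of its 35 WT peaks no mutant peak overlapped by at least 1 bp, or 57.1% (40.9 to 72.0), against 22.8% over the complete WT list. Of the 20, 18 were intronic, 1 was in an exon and 1 lay downstream of the gene. Their pileups ran from 7 to 25, and 14 of them were at 10 or less. Among the 14 WT peaks of Fstl5 with -log10 q of 5 or more, 4 had no mutant peak (28.6%), against 5.78% of all WT peaks of that strength. These 4 are the unmatched regions printed above.

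The 4 stronger unmatched peaks formed a pair of sites. At the first, 227 kb into the gene, a run of 3 peaks spanned chr3:76301093-76302081 with pileups of 20, 25 and 12, and the nearest mutant peak was 5360 bp away from the first of them. The het list held 1 peak over the first and second of these, with a rank of 54.2 in its list. At the second site, 296 kb into the gene, WT peaks with pileups of 15 and 18 lay 9781 bp and 10569 bp from the nearest mutant peak, and neither had a het peak. Weaker unmatched peaks were scattered over the rest of the gene. Of the 20, 3 lay within 300 bp of a mutant peak, the closest at 146 bp, and the median distance was 5.89 kb.

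No mutant pileup is given for an unmatched peak, since the lists hold called peaks only. Where the local background was at its lowest, 1.68 tags in WT and 1.66 in mutant, the lowest pileup called was 7 in both lists. The 14 unmatched peaks at 10 tags or less were thus within 3 tags of the lowest callable height. Weak peaks were unmatched more often everywhere. If each Fstl5 peak had been unmatched as often as all WT peaks of its strength (20 bins of -log10 q), 12.6 of 35 would have been, or 36.1%, and with GC content taken into account as well 37.3%. GC content moved with the result, as 28.4% of WT peaks in the lowest tertile of GC content were unmatched and 15.1% in the highest, and the Fstl5 gene body had a GC content of 36.0%. The median GC content at the summits was 44.8% for the unmatched and 46.8% for the shared peaks of Fstl5, and 51.7% for all WT peaks.

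In the opposite direction, 10 of the 25 mutant peaks of Fstl5 had no WT peak, or 40.0% (23.4 to 59.3). Over all mutant peaks the share was 30.7%, and for mutant peaks of the same strengths it was 56.6%. All 10 were intronic, with pileups of 7 to 11. None reached -log10 q of 5, which 12233 of the 53529 mutant peaks without a WT peak did genome-wide. None had a het peak, against 15.2% of those 53529, which include peaks of every strength. A het share at the strengths of the 10 was not computed. The mutant list at Fstl5 thus contained weak peaks of its own, at fewer positions than the WT list.

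The 15 Fstl5 peaks shared by WT and mutant were mostly lower in mutant. The raw pileup was lower at 11, equal at 2 and higher at 2, where 34.2% of all shared peaks were lower, 8.15% equal and 57.7% higher. With pileups scaled to depth, the median log2 ratio of mutant to WT was -0.17, with a range from -0.72 to 0.24, against 0.08 over all 118098 shared peaks. The summed pileup of these peaks was 292 in WT and 264 in mutant. Both peaks that were at least 1.5-fold lower, at 314 kb and 578 kb from the start site, went from 13 tags to 8, and none was higher by as much, against 3.61% and 8.37% of all shared peaks. Other intronic peaks went from 20 to 16 tags at 146 kb, from 13 to 9 at 215 kb, from 15 to 11 at 317 kb and from 17 to 12 at 580 kb. The shared intronic peak printed above, 606 kb into the gene, went from 20 to 18 and was found in het as well. By percentile rank of -log10 q, in lists of 152984 WT and 174407 mutant peaks, 12 of 15 stood lower in mutant, where 38.1% of all shared peaks did.

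The het list was set against the same 35 WT peaks, which had entered the choice of Fstl5, so its overlap with them is a description as well. A het peak overlapped 10 of the 35, or 28.6% (16.3 to 45.1), where 63.1% of all WT peaks had one and 47.7% would have had one at the strengths of the Fstl5 peaks. Of the 20 unmatched WT peaks, 4 overlapped a het peak (13.2% genome-wide), and of the 15 shared peaks 6 did (77.9% genome-wide). The 4 were the first and second peak of the run at 227 kb, an intronic peak at 532 kb with a WT pileup of 10, and the exonic peak at 633 kb with a WT pileup of 9. The genome-wide 13.2% and 77.9% cover peaks of every strength. One het peak, at 542 kb, was in neither other list. The het list was shallower and called with other settings, which cannot be told apart from genotype here.

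**Figure D2:**
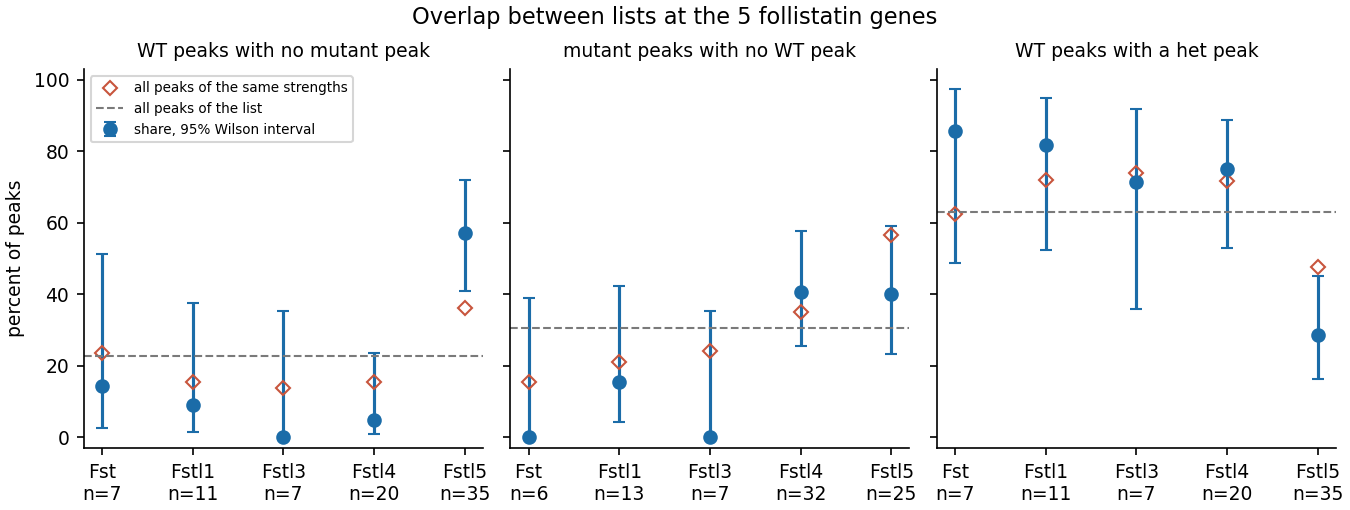
Share of peaks (y axis, percent) at each of the 5 genes that were in WT and not mutant, in mutant and not WT, or in WT and het. Points are shares with 95% Wilson intervals over n peaks, open diamonds the share expected from all peaks of the same strengths, and the dashed line the share over the whole list. Fstl5 is at 57.1% in the left panel, while the other members are at 14.3% or below.

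Fstl4, the member closest to Fstl5 in length (ENSMUSG00000036264.9, chr11:52764634-53188538, plus strand, 423.9 kb), had a mutant peak at nearly all of its WT peaks. It had 20 peaks in WT, 32 in mutant and 20 in het. A single WT peak of the 20 was unmatched, or 5.0% (0.888 to 23.6), and that peak was intronic with a pileup of 10. At the strengths of the Fstl4 peaks, 15.5% would have been unmatched. Fstl4 had fewer weak peaks than Fstl5, with 2 of 20 at a pileup of 10 or less where Fstl5 had 18 of 35. A het peak overlapped 15 of the 20.

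The 19 shared peaks of Fstl4 went in both directions. The pileup was lower in mutant at 6, equal at 4 and higher at 9, and the median log2 ratio was -0.02. The strongest of its WT peaks, 261 kb into the gene and printed above, went from 46 tags to 29, a 1.61-fold lower value after scaling to depth. A peak at 175 kb went from 20 tags to 10, a log2 ratio of -1.02. The start-site peak stood at 15 tags in both lists, and a peak at 418.4 kb went from 16 to 26 tags. No WT peak overlapped 13 of its 32 mutant peaks, or 40.6% (25.5 to 57.7), an interval that holds the 35.1% expected at their strengths and the 30.7% of all mutant peaks. With -log10 q of 5 or more in both lists it was 11.8%, against 24.0% of all mutant peaks, and with lists of equal length 12.5%, against 18.6%. The 13 had ranks of at most 42.3, and 2 of them reached -log10 q of 5. Genome-wide, 12233 of the 53529 mutant peaks without a WT peak reached it. A het peak overlapped 3 of the 13, against 15.2% of those 53529, which include peaks of every strength. In the complete lists, the mutant list held more peaks than the WT list at Fstl4 and fewer at Fstl5. With -log10 q of 5 or more, Fstl4 had 16 WT and 17 mutant peaks, and Fstl5 14 and 6. With lists of equal length, Fstl4 had 17 WT and 16 mutant peaks, and Fstl5 16 and 6.

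Fstl1 (ENSMUSG00000022816.11, chr16:37776873-37836514, plus strand) had 11 WT, 13 mutant and 10 het peaks. One WT peak, intronic with a pileup of 15, had no mutant peak (9.09%, 1.62 to 37.7), and a mutant peak lay 298 bp from it. At the strengths of the Fstl1 peaks, 15.4% would have been unmatched. Of the 10 shared peaks, 8 were higher in mutant and 2 lower, with a median log2 ratio of 0.31. The start-site peak went from 31 tags in WT to 46 in mutant, and the strongest peak, an intronic one 37.6 kb into the gene, from 59 to 70. The intronic peaks at 26.2 kb and 47.3 kb were lower, at 17 against 12 tags and 29 against 22 tags. The median was 0.15 by fold enrichment and 0.15 among the 8 shared peaks with -log10 q of 5 or more in WT, and no replicate error is given for it.

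The activin-binding members Fst and Fstl3 are short genes with few peaks. Fst (ENSMUSG00000021765.9, chr13:114452290-114458951, minus strand) had 7 WT, 6 mutant and 6 het peaks. An intronic WT peak with a pileup of 21 had no mutant peak (14.3%, 2.57 to 51.3). It was a weak call, with a local background of 8.43 tags, -log10 q of 2.25 and a rank of 4.22. At the strengths of the Fst peaks, 23.7% would have been unmatched. The 6 shared peaks were each higher in mutant by 1 to 6 tags, with a median log2 ratio of 0.06. The strongest, 1.79 kb before the start site, had 67 tags in WT and 72 in mutant. Fstl3 (ENSMUSG00000020325.10, chr10:79777272-79782630, plus strand) had 7 WT, 7 mutant and 4 het peaks, and each WT peak had a mutant peak (0 of 7, with an upper bound of 35.4%). At the strengths of the Fstl3 peaks, 13.7% would have been unmatched. The shared peaks of Fstl3 were lower in mutant at 4 and higher at 3, with a median log2 ratio of -0.09. Of the 7 WT peaks in its window, 3 lay within 1 kb of the start of another protein-coding gene, Rnf126 or Palm, and cannot be assigned to Fstl3 alone. No Fst or Fstl3 mutant peak lacked a WT peak. At the strengths of these mutant peaks, 15.6% would have at Fst and 24.2% at Fstl3, and 30.7% of all mutant peaks did.

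**Figure D3:**
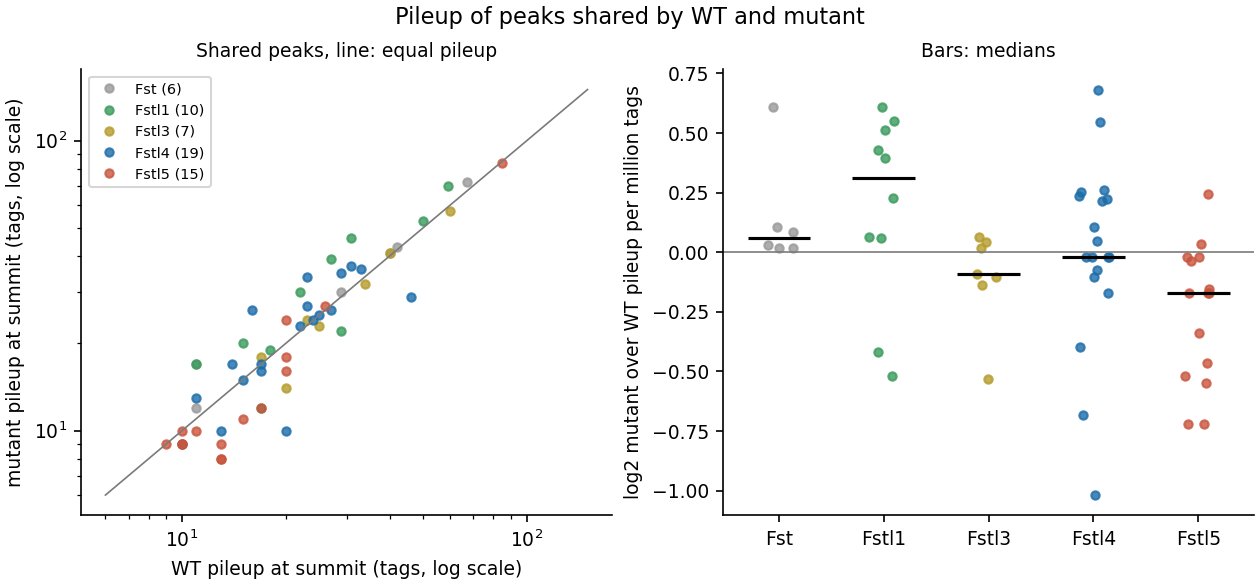
Pileup of the peaks shared by WT and mutant at the 5 genes, as tags in mutant against WT on log axes (left) and as log2 ratio after scaling to depth (right, bars mark medians). The Fstl5 points lie mostly below the line of equal pileup, with a median of -0.17, and the Fstl1 points mostly above it, with a median of 0.31.

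The position of Fstl5 among all genes was then described. Of 4441 genes with 10 or more WT peaks in the body plus 20 kb, 32 had an unmatched share at least as high as Fstl5 (0.721%), counting Fstl5 itself, and the median gene had 17.6%. Among the 1181 genes with 20 or more WT peaks, 4 were as high, and 2 of them were protein-coding. For Fstl4 and Fstl1, 89.8% and 80.1% of the genes had a share at least as high as theirs. When the share expected from peak strength was subtracted, Fstl5 exceeded it by 21 percentage points and 51 genes were as high. The share of mutant peaks without a WT peak was less unusual, as 16.6% of 5699 genes with 10 or more mutant peaks reached the Fstl5 value and 13.5% that of Fstl4.

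**Figure D4:**
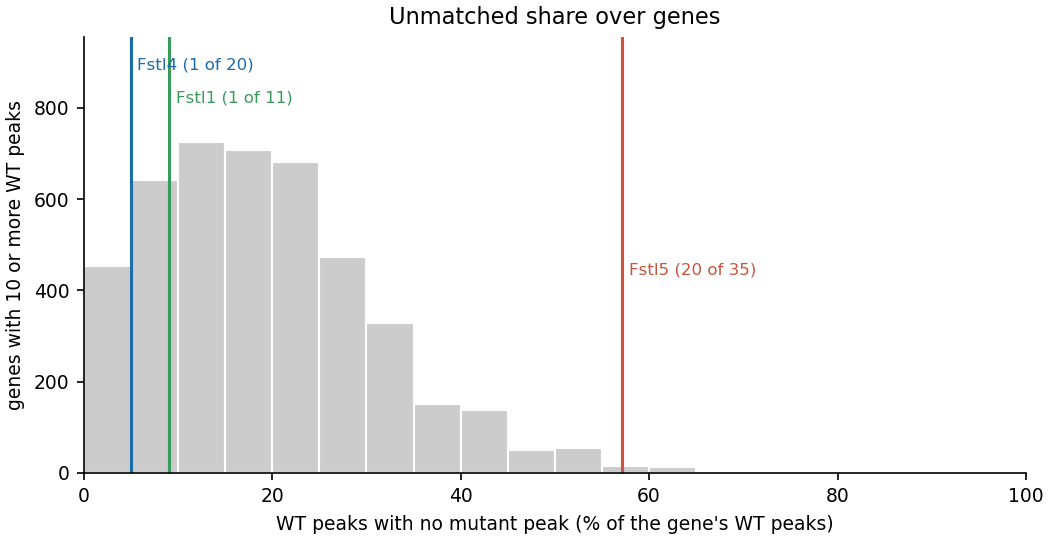
Number of genes (y axis) by the percentage of their WT peaks left unmatched in mutant (x axis, bins of 5 percentage points), for the 4441 genes with 10 or more WT peaks. Lines mark Fstl4 (5.0%), Fstl1 (9.09%) and Fstl5 (57.1%), which lies in the right tail with 32 genes at or above it.

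The genes most like Fstl5 were sought among 1101 protein-coding genes with 20 or more WT peaks and at least 5 shared ones, by distance in 3 values: the unmatched WT share, the unmatched mutant share and the median log2 ratio of shared peaks. The nearest was Cdh12, a classical cadherin of neurons, with 44 of 78 WT peaks unmatched (56.4%), 37.3% of mutant peaks without a WT peak and a median log2 ratio of -0.22. Next came Lrp1b, a giant receptor of the LDL receptor family, with 47.6% unmatched, and Cdh18, another cadherin, with 44.8%. The potassium channel gene Kcnd2 had 46.7%, and the ephrin receptor gene Epha5 47.8%. Their lengths ran from 362.62 kb for Epha5 to 2058.4 kb for Lrp1b. Likeness here is over 3 values from the same pair of lists and is a description.

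The sequence around Fstl5 was examined in 500 kb windows counted from its start site. The window of the first 500 kb had 15 of 25 WT peaks unmatched (60.0%), and the next window, which holds the end of the gene, 11 of 17 (64.7%). Just upstream, between the start site and 500 kb before it, where Golim4 lies 117 kb away, 11 of 36 were unmatched (30.6%). The window that follows the gene, 1000 to 1500 kb from the start site and without a protein-coding gene, had 16 of 21 (76.2%), and the next 47.8%. At the strengths of their peaks, 37.6% and 46.1% would have been unmatched in the windows of Fstl5 and 45.1% in the one after it. The next protein-coding gene downstream, Rapgef2, lies 2352.5 kb from Fstl5, and the windows with Rapgef2 were at 15.6% and 15.3%. High shares were also found elsewhere: 3 windows without coding genes 3500 to 5000 kb upstream reached 64.3%, 92.9% and 71.4%, on 14 WT peaks each, and the window 1000 to 1500 kb upstream, with part of the coding gene Zbbx, had 8 of 12 (66.7%). Windows without a protein-coding gene ranged from 30.8%, at 2000 to 2500 kb, to 92.9%. Over the 18 windows without Fstl5, 159 of 456 WT peaks were unmatched (34.9%), and over the rest of chromosome 3 25.4%. The only other annotated gene inside the Fstl5 window was Gm37897, a transcript to be experimentally tested within an Fstl5 intron (chr3:76546691-76550251), and 1 shared WT peak, with 10 tags against 9, lay in it.

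**Figure D5:**
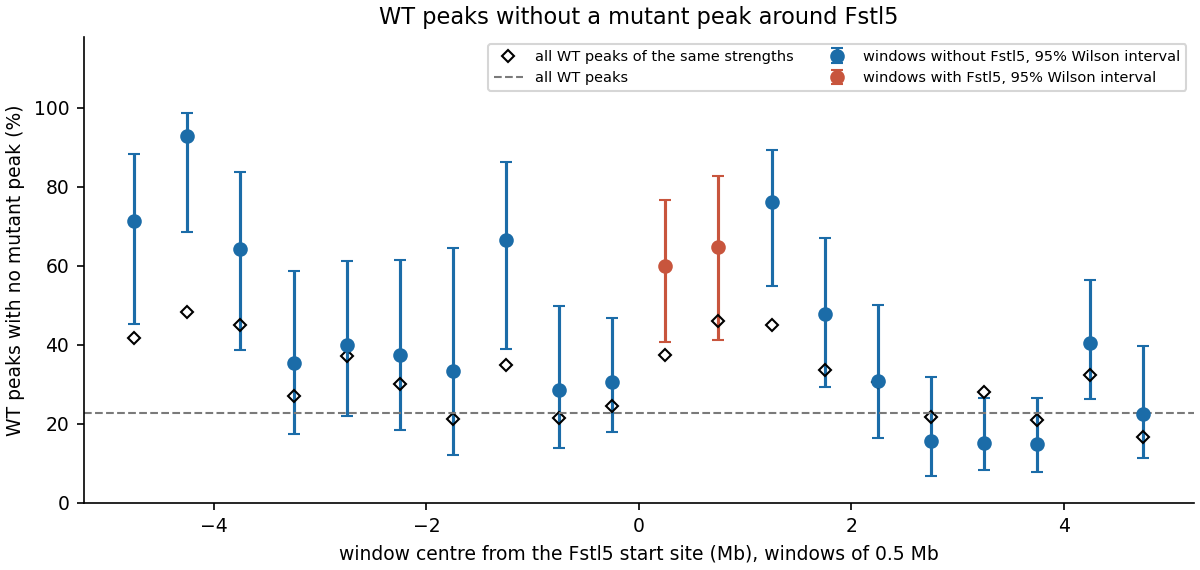
Unmatched share of WT peaks (y axis, percent, with 95% Wilson intervals) in 500 kb windows around the Fstl5 start site (x axis, Mb). Red windows contain Fstl5, diamonds give the share expected from all WT peaks of the same strengths and the dashed line is 22.8%. The 2 windows of Fstl5, at 60.0% and 64.7%, lie within the range of the windows without a protein-coding gene, from 30.8% to 92.9%, and the window with Zbbx stands at 66.7%.

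The nearest WT peaks outside the Fstl5 window were 10.7 kb beyond its upstream edge, with -log10 q of 18.1 and a mutant peak, and 99.993 kb beyond its downstream edge, with -log10 q of 2.26 and no mutant peak.

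Motif matches were counted in 201 bp around each summit, on both strands. Among the 20 unmatched Fstl5 peaks, CAGCTG was found in 2 (10%) and TTGGC in 6 (30.0%), and among the 15 shared peaks in 5 (33.3%) and 9 (60.0%). Over all WT peaks CAGCTG was found in 23.6% and TTGGC in 48.1%. CAGATG was found in 6 unmatched and 6 shared peaks, or 30.0% and 40.0%, against 28.6% of all WT peaks. TGACTCA was found in 1 peak of each kind, against 3.97% of all WT peaks. The 45 WT peaks of the other 4 members held CAGCTG in 22.2% and TTGGC in 53.3%. These counts are small and are given without a test.

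Other genes with follistatin domains and the genes of the activin pathway were looked up as 4 lists. The 13 follistatin-domain relatives, which include matricellular proteins and proteoglycans such as Sparc and Agrn, had 34 of 157 WT peaks unmatched (21.7%). Spock3, a testican proteoglycan gene of 406.1 kb, was the highest among them with 7 of 15 (46.7%), and Tmeff1 and Wfikkn1 the lowest with 0 of 5 and 0 of 7. The 7 activin ligand genes had 1 of 50 unmatched (2.0%), which was in Inhba, the gene of the activin A subunit (1 of 9), while Gdf11, Inhbb, Inhbc, Inhbe and Mstn had 0. Of the 7 receptor and co-receptor genes, with 18 of 83 (21.7%), Acvr1c, a type I receptor gene, was the highest with 5 of 10 (50%), and Acvr1b, Acvr2a and Acvr2b, which encode the main activin receptors, had 0 of 8, 0 of 5 and 0 of 8. The intracellular mediators had 9 of 40 (22.5%), from 2 of 11 in Smad7 to 5 of 15 in Smad3, both with 5 or more WT peaks. In all, 62 of 330 WT peaks of the 32 genes were unmatched (18.8%), against 22.8% of all WT peaks. These list counts are summed over genes, so a peak in overlapping windows counts for each gene. No gene of the lists with 5 or more WT peaks reached the share of Fstl5.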

How the data were processed

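ATAC-seq libraries of WT, mutant and het GNPs were pooled by genotype by the authors, who called narrow peaks with MACS2 2.1.0.20150731 at q 0.05 without a control, in mm10 coordinates. Per the file headers, WT and mutant alignments came from STAR and het alignments from bowtie, with a shift and fixed extension for het only. For each peak the authors deposited the pileup (a signal in tags, not scaled to depth), fold enrichment (the ratio of pileup to local background) and -log10 q values. The WT and mutant lists were matched to their groups by file name.

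Peaks were assigned to GENCODE M21 gene bodies plus 20 kb, and peaks of different lists were matched by overlap of 1 bp or more with scripts in Python 3.11.15, which were checked against bedtools 2.31.1 and tested on simulated data. Pileups of shared peaks were divided by the tags of their list, using the strongest overlapping mutant peak. Rank is the percentile of -log10 q in a list. Sequences and GC content came from GRCm38. Alternatives to the overlap rule, strength filters, flanks and height measure are given at the end. Named were the 5 members, the highest and lowest genes of each list with 5 or more WT peaks, genes within the Fstl5 window and the 5 genes most like Fstl5. Members, lists and motifs were chosen with earlier results of these data known. The -log10 p columns, 3 in number, were not used.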

Additional observations from a re-analysis of the deposited data

How the results depend on the processing

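The unmatched WT share was higher at Fstl5 than at each of the 4 relatives under the reported rule and under all 9 alternatives, between 28.6% and 62.9%. Fstl5 was chosen by this share, so the order under variants of the same measure is a description. All WT peaks ranged from 5.78% to 35.9% over the settings with 20 kb flanks. The highest relative was Fst at 42.9%, with 50% reciprocal overlap. The Fstl5 share moved outside its interval only when WT peaks were limited to -log10 q of 5 or more and set against the complete mutant list (28.6%). The share of mutant peaks without a WT peak was 0% with that filter on the mutant list, 0% with it on both lists, 0% with lists of equal length, each on 6 mutant peaks, and 18.2% with a fold enrichment of 4 or more in both lists. Over all mutant peaks the same settings gave 11.2%, 24.0%, 18.6% and 27.6%, and the interval of each 0% reached 39.0%. The share of WT peaks with a het peak was 50% with the filter on the WT list and on both lists, where all WT peaks stood at 84.2% and 77.5%. The filter left 14 WT and 6 mutant peaks at Fstl5. The median log2 ratio of the shared Fstl5 peaks stayed below 0 under each of 5 alternatives, and was -0.40 among the 10 with -log10 q of 5 or more in WT. That filter was on WT strength alone and so favours lower mutant values. Over all shared peaks it gave a median of 0.03, against 0.08 without it. These values remain a description.

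The share of genes as high as Fstl5 was 0.339% with 20 or more WT peaks, 1.13% with peaks within 300 bp counted as matched, 1.5% by WT peaks with -log10 q of 5 or more, 1.15% after subtracting the share expected by strength and 1.31% by strength and GC content. Medians of shared pileups near 0 changed sign at 3 relatives. By fold enrichment they were -0.0087 for Fst, 0.031 for Fstl3 and 0.016 for Fstl4. With the gene body alone Fstl3 was at 0.041. Fstl4 was at 0.014 among peaks with -log10 q of 5 or more, and 0.892 points higher by rank. The cause was not tested.

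No paired analysis was possible because each list pools the libraries of a genotype. No replicate was left out, for the same reason. Depth limits statements on peaks of 10 tags or less, since the lowest pileup called was 7.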
